A study of Arabidopsis thaliana with 24 samples.

Results

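The response of wild-type Arabidopsis seedlings to abscisic acid (ABA) was followed in 6 of the 24 small RNA libraries of the series, all of the genotype WT Col-0. Seedlings were 2 weeks old and grown on Murashige and Skoog medium with sucrose. The ABA group had received 100 µM ABA, which was dissolved in methanol, for 4 h, and the mock group an equivalent mock treatment. Each group held 3 libraries, described in the study's methods as independent biological replicates. The other 18 libraries came from the abi1td, mkkk17 and mkkk18 mutants, 6 of each, and enter only where the wild-type response was set against theirs. Both wild-type groups carried the same genome with no transgene. Whole seedlings were used at a single dose and a single time, so fewer cells of a type and less miRNA per cell cannot be told apart. The tables hold small RNAs and no marker transcripts, and the tissue was therefore not checked.

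ABA is the hormone with which plants answer drought, salt and cold. Receptors that bind it inhibit PP2C phosphatases such as ABI1, and the kinases so released act on transcription factors and ion channels. Plant miRNAs are cut by DCL1 from a hairpin in a primary transcript, and the cut releases a duplex of the 5p and the 3p arm. Usually an arm is kept in an Argonaute protein as the guide and its partner, the star strand, is degraded, so a duplex leaves a high and a low arm in a library. Guides pair with mRNAs, many of which encode transcription factors, hormone receptors or the silencing machinery itself.

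Each table listed the same 350 mature sequences in 214 families. In the wild type, 240 were above 0 in at least 1 library and 125 sequences of 64 families reached a mean of 1 RPM (the reads of a sequence relative to the total of its library) and were tested. Values are given as scaled RPM, that is RPM divided by a factor for each library (the median of ratios), and fold changes as differences of log2(scaled RPM + 0.5) in limma, ABA minus mock, which understates changes of low miRNAs. A miRNA is said to have risen or fallen at an adjusted p under 0.05. Summed RPM of the listed sequences ran from 43059 to 69409 in mock and from 33399 to 54118 in ABA libraries. A limited range of library totals was searched for depths at which all deposited values are whole reads, within rounding. Such totals were found only for the later pair of ABA libraries, where 3 reads were worth 0.457 and 0.541 RPM. The range ended below the mean number of reads that the study gives for wild-type mock libraries. The depth of the other 4 libraries was therefore not settled. The division raised ABA against mock values by 0.51 on the log2 scale, the same shift for each miRNA, and directions below are relative to it.

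The sequences on which the results turn are shown first, as given in the deposited tables, with bases 2 to 8, the seed that starts pairing with a target, in capitals. Both arms of the hairpins whose arms moved apart come first, since the pair shows guide and star strand of the same duplex.
miR156a-5p: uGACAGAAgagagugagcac
miR156f-3p: gCUCACUCucuauccgucacc
miR157a-5p: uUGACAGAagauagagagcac
miR157a-3p: gCUCUCUAgccuucugucauc
miR393a-5p: uCCAAAGGgaucgcauugaucc
miR393a-3p: aUCAUGCUaucucuuuggauu
miR393b-3p: aUCAUGCGaucucuuuggauu
miR824-5p: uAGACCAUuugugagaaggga
miR824-3p: cCUUCUCAucgauggucuaga
miR2111a-5p: uAAUCUGCauccugagguuua
miR2111b-3p: aUCCUCGGgauacaguuuacc
Next come the strongly changed guides without such a pair, with a sister sequence where one exists.
miR472-3p: uUUUUCCUacuccgcccauacc
miR161.1: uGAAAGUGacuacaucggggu
miR161.2: uCAAUGCAuugaaagugacua
miR397a: uCAUUGAGugcagcguugaug
miR397b: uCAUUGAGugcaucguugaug
miR846-3p: uUGAAUUGaagugcuugaauu
miR158a-3p: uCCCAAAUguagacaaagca
miR447a.2-3p: uAUGGAAGaaauuguaguauu
miR165a-3p: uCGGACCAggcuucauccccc
miR166a-3p: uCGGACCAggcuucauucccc

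Exact matches to TAIR10.1, the build used here because the sources name TAIR without a build, placed all 350 sequences inside annotated primary miRNA transcripts. A sequence that several loci share is 1 value in the tables. The guide miR156a-5p was found at 6 loci and miR166a-3p at 7, while miR156f-3p lay only in MIR156f (AT5G26147) on chromosome 5 from 9136197 to 9136217. The arms of miR824 came from MIR824 (AT4G24415) on chromosome 4, the 5p arm from 12625128 to 12625148 and the 3p arm from 12625721 to 12625741. miR393a-3p lay in MIR393a (AT2G39885) on chromosome 2 from 16652205 to 16652225, miR393b-3p in MIR393b (AT3G55734) on chromosome 3 from 20691778 to 20691798, and both genes hold miR393a-5p. miR2111b-3p lay in MIR2111b (AT5G02035) on chromosome 5 from 400464 to 400484, and miR472-3p on the minus strand of chromosome 1 from 4182143 to 4182164 in MIR472 (AT1G12294). miR846-3p lay in MIR846 (AT1G61226) on chromosome 1 from 22577662 to 22577682. Sequences that differ by a base or so, such as miR393a-3p and miR393b-3p, miR397a and miR397b, or miR165a-3p and miR166a-3p, could exchange reads if the counting allowed mismatches, which is not given in the sources used here.

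ABA changed 75 of the 125 miRNAs tested (60% of all tested), with 33 higher (26.4%) and 42 lower (33.6%). In 83 of them (66.4%) the 3 ABA libraries did not overlap the 3 mock libraries. With RPM as deposited, where the common shift is not removed, 9 miRNAs were higher and 48 lower. Of the 75 calls, 8 of those that were higher and 14 of those that were lower were called the same way in every one of the 17 alternatives that tested them, 22 in all.

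**Figure D1:**
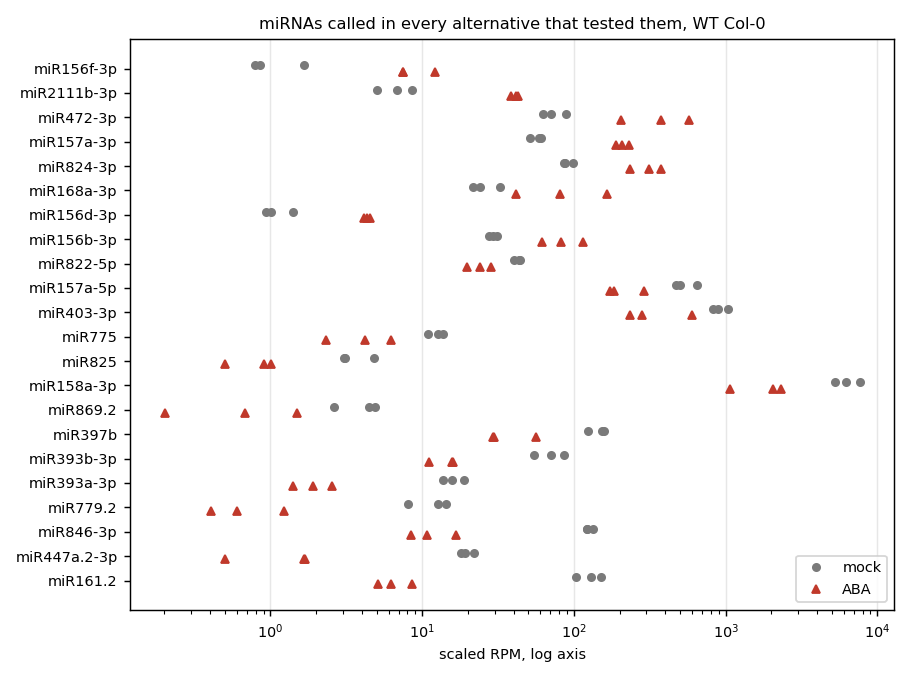
Scaled RPM (log axis) of the 22 miRNAs called in the same direction in every alternative that tested them, with a grey circle for each of the 3 mock and a red triangle for each of the 3 ABA libraries of WT Col-0. The groups do not overlap in any row, from miR156f-3p (log2 fold change 2.58) at the top to miR161.2 (-4.18) at the bottom.

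Arms of the same hairpin often changed differently. Star strands of the miR156 and miR157 hairpins rose while their guides, which repress SPL transcription factors and so hold plants in the juvenile phase, did not. miR157a-5p had 501, 469 and 642 scaled RPM in mock and 288, 184 and 173 in ABA libraries. All ABA libraries lay below all mock libraries, at -1.34 ± 0.25 on the log2 scale (here and below ± the standard error; adjusted p = 0.000406, limma). Its partner miR157a-3p had 59.0, 51.3 and 60.9 in mock and 190, 206 and 231 in ABA libraries. It moved the opposite way, by 1.86 ± 0.23 (adjusted p = 9.23e-06, limma), again with no overlap. The log2 ratio of 5p to 3p arm went from 3.07, 3.18 and 3.39 in mock to 0.60, -0.16 and -0.42 in ABA libraries, a fall by 9.24-fold (-3.21 ± 0.36, adjusted p = 3.03e-05, limma). An arm pair with a clear guide under mock thus had near-equal arms under ABA. The star strand of a further locus, miR157c-3p, rose by 0.73 ± 0.24 (adjusted p = 0.0165, limma), a call lost with RPM as deposited, with the replicate block and without mock replicate 1 or 3.

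The guide miR156a-5p had 330, 247 and 336 scaled RPM in mock and 399, 250 and 260 in ABA libraries. These overlapped, and its log2 fold change of -0.03 ± 0.25 turned positive under several alternatives. All 5 star strands of miR156 that were tested rose. miR156f-3p had 1.66, 0.80 and 0.86 scaled RPM in mock and 7.52, 12.1 and 7.47 in ABA libraries, miR156b-3p 27.8, 31.1 and 29.3 in mock and 61.8, 82.6 and 114 in ABA libraries. Both were higher in every ABA library than in any mock library, by 2.58 ± 0.34 and 1.49 ± 0.27 (adjusted p = 1.42e-05 and 0.000315, limma). miR156d-3p rose by 1.59 ± 0.32 from levels near 1 scaled RPM. The changes of miR156a-3p and miR156c-3p were 1.35 ± 0.27 and 1.04 ± 0.26 and did not pass with RPM as deposited. Each of these 5 ratios is set against the same 5p value, because the 6 loci share the guide, so the 5 are not independent of each other. Summed over its members, the miR156 family did not pass (0.35 ± 0.24), and neither did miR157 (-0.39 ± 0.23), whose arms moved in opposite directions. The sum for miR156 turned negative with RPM as deposited and that for miR157 positive with the GC correction described below.

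Over all hairpins with both arms tested, 18 of 43 ratios of 5p to 3p arm changed (41.9%), with 5 shifted towards the 5p arm (11.6%) and 13 towards the 3p arm (30.2%). In 22 of the 43 pairs (51.2%) the ratios of the groups did not overlap. The less abundant arm gained in 9 of the 18 and the more abundant arm in the other 9. The 7 ratios of miR156 and miR157 are among the former. Arms of the same hairpin were called in opposite directions in 3 of the 43 pairs and in the same direction in 9. In 26 pairs only 1 arm was called. A ratio within a library is free of the scaling between libraries, apart from the 0.5 added to each value.

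**Figure D2:**
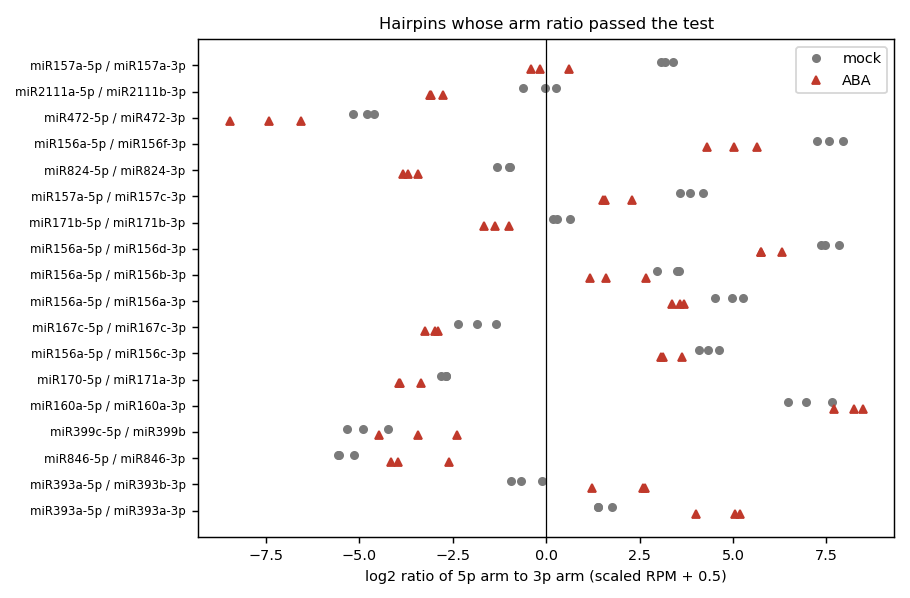
Log2 ratio of the 5p to the 3p arm in each WT Col-0 library for the 18 hairpins whose ratio changed (grey circles mock, red triangles ABA, 3 libraries each). Ratios moved to the left, towards the 3p arm, in 13 hairpins, most in miR157a (by 3.21), and to the right in 5, most in miR393a (by 3.25), and the groups overlap only for miR399c-5p and miR399b.

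miR393, which targets the auxin receptors TIR1 and AFB, moved the other way. Its guide miR393a-5p had 36.5, 49.9 and 54.0 scaled RPM in mock and 101, 38.3 and 69.3 in ABA libraries. The groups overlapped, and the fold change of 0.48 ± 0.32 did not pass, except without the second ABA library, where it was 0.86. It was -0.03 with RPM as deposited. miR393a-3p had 13.7, 18.9 and 15.7 in mock and 2.56, 1.91 and 1.41 in ABA libraries, and miR393b-3p 70.6, 54.5 and 85.8 in mock and 15.6, 16.1 and 11.1 in ABA libraries. Both star strands were lower in every ABA library, with log2 fold changes of -2.77 and -2.25. The ratio of 5p to 3p arm therefore rose by 3.25 ± 0.37 (9.51-fold) for miR393a and by 2.73 ± 0.43 (6.66-fold) for miR393b (adjusted p = 3.03e-05 and 0.000252, limma). Among the alternatives the falls of miR393a-3p and miR393b-3p shrank to as little as -1.35 and -1.27, with each call kept. Both star strands hold less GC than the guide, and the part of GC content in the size of these ratio changes was not tested. Under mock the star strand miR393b-3p, which is known to act in immunity in Arabidopsis, was the more abundant arm in each library, and under ABA the guide was. The summed miR393 family fell by 0.69 on the log2 scale while its guide did not fall, and that call was lost without any 1 of 4 libraries (both later mock and both later ABA libraries), with no filter and with the GC correction.

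Arms also parted in miR824, which targets the MADS-box factor AGL16. The arm miR824-5p had 44.2, 43.2 and 39.1 scaled RPM in mock and 21.4, 25.5 and 23.8 in ABA libraries. The arm miR824-3p had 87.5, 86.4 and 98.4 in mock and 235, 372 and 314 in ABA libraries. Neither arm overlapped between groups, the 5p arm being lower by 0.83 and the 3p arm higher by 1.73 on the log2 scale (adjusted p = 0.0102 and 2.82e-05, limma), and the ratio fell 5.88-fold. The call of the 5p arm was lost with the GC correction (-0.27). miR2111b-3p had 6.86, 8.61 and 5.06 in mock and 38.4, 41.6 and 43.0 in ABA libraries, a rise by 2.53 ± 0.28 with no overlap. Its 5p arm, shared with MIR2111a and increased in shoots under phosphate starvation, had values of 4.90 to 8.32 in mock and 4.50 to 5.26 in ABA libraries (-0.32 ± 0.30). That change was 0.67 with the GC correction and did not pass either way. The ratio fell 7.19-fold (adjusted p = 4.95e-05, limma).

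In contrast, both arms of miR408 rose by similar amounts, 1.10 for the 3p and 1.16 for the 5p arm (neither called with RPM as deposited), and their ratio changed by 0.06 ± 0.33. Both arms of miR158a fell (-1.87 and -2.35) and both arms of miR403 fell (-1.42 and -1.78), with ratio changes of -0.48 ± 0.36 and -0.36 ± 0.47 that did not pass. The fall of miR158a-5p was -0.50 and not called with the GC correction. The ratios of miR408, miR158a and miR403 changed sign in at least 1 alternative. Smaller ratio changes were called for miR171b (-1.72), miR167c (-1.18), miR160a (1.11), miR171a (-1.0047) and the miR399c-5p and miR399b pair (1.40), and each of these lost its call with the GC correction, the replicate block or 1 library left out. In miR846 the ratio rose by 1.85, but by 1.00 with a pseudocount of 0.1, no longer called, since its 5p arm was listed at 0 in 1 ABA library.

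Shares of the target classes are to be read against those over all miRNAs, 26.4% higher and 33.6% lower. Families against transcription factors of growth and phase change had 43 of 56 listed sequences tested, of which 15 rose (34.9%) and 11 fell (25.6%). Classes were assigned by family, so the counts of this and the other classes take in star strands as well as guides. The risers here include the star strands of miR156 and miR157 described above, so this is no count of guides alone. miR166a-3p, which targets HD-ZIP III factors and was the largest entry, had 16602, 14642 and 20727 scaled RPM in mock and 24388, 33476 and 28515 in ABA libraries. miR165a-3p, with the same seed and targets, had 4611, 3742 and 5802 in mock and 6236, 8152 and 7072 in ABA libraries. Groups did not overlap and the changes of 0.74 ± 0.19 and 0.61 ± 0.21 passed, but neither did with RPM as deposited. With the GC correction miR166a-3p was -0.43, which did not pass. miR165a-3p was -0.98 with it, a fall that passed (adjusted p = 0.00255, limma), and its call as higher was lost in 9 alternatives. miR166a-5p, a star strand, rose by 1.23 ± 0.25, likewise not called with RPM as deposited or with the GC correction (0.07). miR171a-3p, which targets the HAM factors of the shoot meristem, had 41.1, 44.6 and 52.8 in mock and 102, 123 and 131 in ABA libraries, a rise by 1.35 ± 0.24 with no overlap that was not called with RPM as deposited. In the same family the arm miR171b-5p fell by 1.95 on the log2 scale, a call lost with the GC correction and the replicate block together. Its partner arm miR171b-3p did not pass (-0.23).

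Guides of the same class that fell included miR172a, which represses AP2-like floral repressors, with 10.40, 13.03 and 13.07 scaled RPM in mock and 5.26, 3.04 and 3.13 in ABA libraries. All ABA libraries lay below mock, a change of -1.59 ± 0.30 (adjusted p = 0.000454, limma), though -0.60 and not called with the GC correction. miR319a, which targets TCP factors, fell by 0.62 on the log2 scale, a call lost in 6 alternatives. miR169h, which targets NF-YA factors, fell by 1.10 on the log2 scale, a call lost without mock replicate 3 and without ABA replicate 3. Neither miR159a (-0.24 ± 0.19) nor miR159b-3p (-0.46 ± 0.20), which target the GAMYB-like factors MYB33 and MYB65, passed, and both signs turned with the GC correction (0.32 and 0.09). miR159b-3p nevertheless lay lower in all 3 ABA libraries, at 1697, 1702 and 1781 against 2377, 2114 and 2687.

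Of 12 miRNAs of auxin signalling tested, 3 rose (25%) and 2 fell (16.7%), the latter both being miR393 star strands. miR160a-5p, which targets the auxin response factors ARF10, ARF16 and ARF17, had 336, 323 and 447.4 scaled RPM in mock and 818, 527 and 668 in ABA libraries. It rose by 0.86 ± 0.24 with no overlap, but was -0.31 with the GC correction and not called with RPM as deposited. miR847 rose by 0.95 from about 1 scaled RPM, a call lost in 7 alternatives, and miR167c-3p, the more abundant arm of its hairpin, rose by 1.08, a call lost with RPM as deposited and without mock replicate 3.

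Copper-linked miRNAs split, with 4 higher and 1 lower of 8 tested. miR397b, which targets laccases, had 159, 154 and 124 scaled RPM in mock and 29.9, 56.0 and 29.5 in ABA libraries. It fell by 1.96 ± 0.28 on the log2 scale (adjusted p = 3.17e-05, limma) with no overlap, while miR397a, of nearly the same sequence, had 3.19 to 5.10 in mock and 3.01 to 6.06 in ABA libraries. The fold change of miR397a was 0.19 ± 0.33, and -0.25 with RPM as deposited. miR408-3p, which targets plantacyanin and laccases, had 254, 196 and 209 in mock and 344, 471 and 641 in ABA libraries. It rose by 1.10 ± 0.26 without overlap, but was -0.06 with the GC correction. miR398b-3p, which targets the superoxide dismutases CSD1 and CSD2, had 1154 to 1467 in mock and 1331 to 1761 in ABA libraries and did not pass (0.26 ± 0.21), with -0.26 for RPM as deposited and -0.48 with the GC correction. The low miR398a-3p and miR398a-5p both rose, by 1.12 ± 0.36 and 1.11 ± 0.38, and each call was lost in 5 alternatives.

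The silencing machinery showed opposite changes among its regulators, with 3 higher and 3 lower of 8 tested. miR168a-3p had 21.5, 24.1 and 32.7 scaled RPM in mock and 166, 41.7 and 80.5 in ABA libraries. Every ABA library lay above mock, a rise by 1.66 ± 0.38, with a wide spread among ABA libraries. The guide on the same hairpin, miR168a-5p, which targets AGO1, had 108, 100 and 159 in mock and 240, 175 and 195 in ABA libraries. It rose by 0.74 ± 0.25, but was -0.42 with the GC correction. miR162a-3p, which targets DCL1, rose by 1.01 ± 0.28, a call lost with RPM as deposited and without mock replicate 1. miR403-3p, which targets AGO2, had 821, 1029 and 895 in mock and 597, 282 and 236 in ABA libraries, a fall by 1.42 on the log2 scale without overlap, called in every alternative. miR403-5p fell by 1.78 on the log2 scale, yet was 0.19 with the GC correction. miR838, which lies in an intron of DCL1, fell by 1.10 on the log2 scale, a call lost in 8 alternatives and 0.32 with the GC correction.

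The class of trans-acting siRNA triggers was assigned by family and takes in both arms, not triggers alone. Its tested families were miR173, miR390 and miR391, with 5 of the 8 listed sequences tested. Of these 5, 2 rose (40%) and none fell, so that 40% were called against 60% over all. At an unadjusted p under 0.05 in limma the counts were the same, 2 and 0. Those that rose were miR390a-5p and miR391-3p. miR390a-5p, which directs the cutting of TAS3 transcripts, had 149, 142 and 188 scaled RPM in mock and 235, 239 and 288 in ABA libraries (0.67 ± 0.23, but -0.49 with the GC correction). The change of miR391-3p was 1.24 ± 0.34, not called with RPM as deposited. Among 10 miRNAs of phosphate and sulfate supply, 3 rose (30%) and 2 fell (20%). miR399d and miR399c-5p rose by 1.10 ± 0.28 and 1.42 ± 0.39. The latter lost its call without mock replicate 3. The former belongs to the guides against the ubiquitin-conjugating enzyme PHO2 and lost its call with the GC correction (0.36) and with RPM as deposited (0.59). miR827, which targets the phosphate regulator NLA, had 1217, 1175 and 1051 in mock and 659, 741 and 702 in ABA libraries. This fall by 0.71 on the log2 scale without overlap became a rise by 0.71 with the GC correction, which passed (adjusted p = 0.0218, limma). miR395b, which targets ATP sulfurylases, fell by 0.93 on the log2 scale, a call lost in 4 alternatives.

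The class of immune receptor genes, assigned by family, had 1 higher (33.3%) and 1 lower (33.3%) of 3 tested. It takes in both arms of miR472 and a miR825 sequence whose name gives no arm, so the counts are not of guides alone. miR472-3p, which targets coiled-coil NLR receptor genes, had 62.8, 88.1 and 70.3 scaled RPM in mock and 204, 375 and 570 in ABA libraries, the largest rise among miRNAs with a mock mean above 10 scaled RPM (2.26 ± 0.32, adjusted p = 2.82e-05, limma). Its 5p arm, at 1.11 to 2.68 scaled RPM, did not pass (-0.36 ± 0.36, and 0.19 with the GC correction). miR825 had 3.12, 3.04 and 4.83 in mock and 0.90, 1.01 and 0.50 in ABA libraries, lower in each by a log2 change of -1.67 ± 0.35.

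Several of the deepest falls were in young miRNAs that are known from few plant species. Of 3 miRNAs each in the classes of pentatricopeptide repeat and jacalin lectin genes, 2 of either class fell (66.7%, against 33.6% over all miRNAs). In each class 0 rose, against 26.4% over all (also 0 higher at an unadjusted p under 0.05 in limma). Median GC contents were 33.3% and 38.1%, below the 47.6% over all tested miRNAs. miR161.2, which targets pentatricopeptide repeat genes, had 103, 130 and 150 scaled RPM in mock and 8.57, 6.18 and 5.15 in ABA libraries. Its sister miR161.1, cut from the same arm a few bases on, had 334, 363 and 423 in mock and 446, 557 and 400 in ABA libraries, overlapping groups that did not pass (0.32 ± 0.23, and -0.20 with RPM as deposited). Summed, the miR161 family changed by -0.08 ± 0.23 and did not pass, with 0.39 after the GC correction. miR400, of the same target class, fell by 2.61 on the log2 scale, but its call was lost with the GC correction (-0.76). miR846-3p, which targets jacalin lectin genes, had 121, 133 and 121 in mock and 16.7, 10.8 and 8.38 in ABA libraries (-3.39 ± 0.28, adjusted p = 1.12e-07, limma). miR842, whose targets are of the same kind, had 1.63 to 2.53 in mock and 1.65 to 2.92 in ABA libraries, overlapping, with a change of 0.09 ± 0.34 that turned negative in 5 alternatives. miR158a-3p fell from 5272, 6168 and 7641 to 2333, 2040 and 1067, and miR447a.2-3p, whose targets are kinases of 2-phosphoglycerate, from 19.2, 18.1 and 22.1 to 1.65, 1.69 and 0.50, each without overlap. Among the alternatives the falls of miR161.2, miR846-3p, miR158a-3p and miR447a.2-3p shrank to as little as -2.76, -1.54, -1.06 and -1.31, with each call kept. miR846-3p holds 28.6% GC, and the part of GC content in the depth of these falls was not tested.

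Of 3 families whose hairpins are cut by DCL4 in place of DCL1, miR839 rose (1.35 ± 0.33 for miR839-5p, not called with RPM as deposited) and 2 fell. miR822-5p had 44.4, 40.2 and 43.6 scaled RPM in mock and 24.1, 28.6 and 19.7 in ABA libraries, and miR869.2 had 4.47, 2.61 and 4.90 in mock and 1.504, 0.675 and 0.202 in ABA libraries. miR823, which targets the DNA methyltransferase CMT3, fell by 0.97 on the log2 scale, but was 0.02 with the GC correction. Among families outside the listed classes, 19 of 215 sequences were tested and 12 fell (63.2%, against 33.6% over all miRNAs) while none rose. At an unadjusted p under 0.05 in limma, 1 was higher and 12 were lower. They included miR779.2, with 8.11, 12.7 and 14.3 scaled RPM in mock and 0.60, 1.24 and 0.40 in ABA libraries, and miR775, with 12.7, 10.9 and 13.7 in mock and 4.21, 6.18 and 2.32 in ABA libraries. miR781a, miR860 and miR1886.2 fell by 2.13, 2.06 and 2.06 on the log2 scale and each lost its call with the GC correction. The 19 tested sequences outside the listed classes had a median GC content of 40.9%, below the 47.6% over all tested miRNAs. The part of GC content in these falls was not tested.

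Summed by family, 45 of 65 families changed (69.2%), 16 higher (24.6%) and 29 lower (44.6%). Members were called in both directions in 3 of the 33 families with several tested members, namely miR157, miR171 and miR824. Of 105 distinct seeds, 17 were shared by several tested sequences, and no shared seed had members called in both directions. At an unadjusted p under 0.05 in limma it was 0 as well. Most shared seeds lacked several called members and so could not have shown both directions. The families miR166 and miR165, miR156 and miR157, and miR170 and miR171 share a seed between families.

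**Figure D3:**
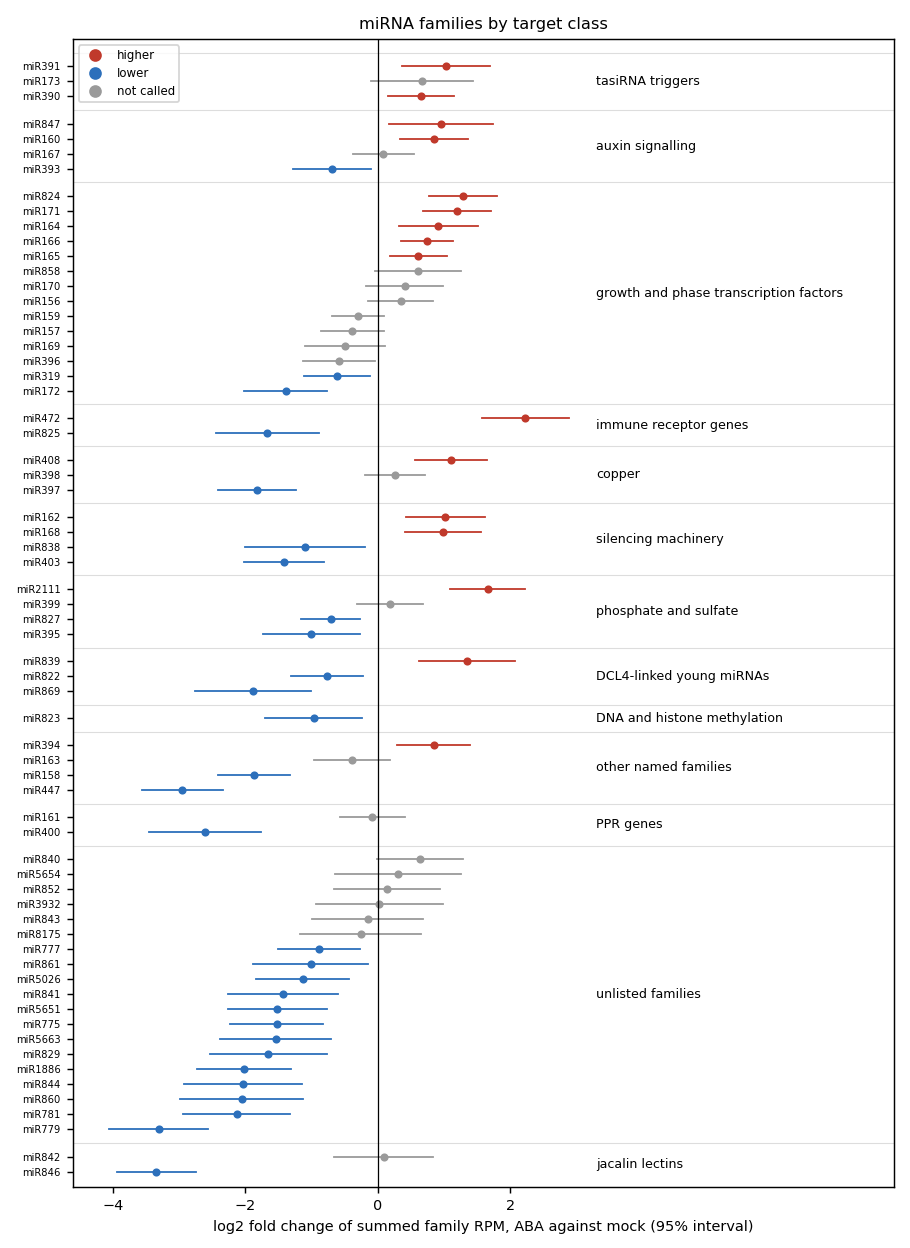
Log2 fold change, ABA minus mock, of the summed scaled RPM of each of 65 families in WT Col-0, with the 95% interval from limma, ordered by target class (red higher, blue lower, grey not called). Higher and lower families sit side by side in most classes, and all called families outside the listed classes lie below 0.

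In families with an earlier link to ABA, 27 members were tested and 15 were called (55.6%, against 60% over all). miR165, miR166, miR168, miR394 and miR160 had members that rose, with miR394a, a regulator of the F-box gene LCR, at 48.9, 45.5 and 55.7 scaled RPM in mock and 68.7, 98.2 and 108 in ABA libraries (0.84 ± 0.26, not called with RPM as deposited or the GC correction). Members of miR393, miR397, miR169 and miR846 fell, among them miR169f-3p (-1.18 ± 0.38, not called without mock replicate 3). For miR159 and miR842 no member passed in either direction, and at an unadjusted p under 0.05 in limma there was 1 of miR159, the lower miR159b-3p, and 0 of miR842.

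As a share of the summed RPM, miRNAs against growth and phase transcription factors took 71.2%, 66.7% and 71.2% in mock and 79.0%, 84.7% and 82.0% in ABA libraries, most of it miR166a-3p. The class that holds miR158 took 12.4%, 15.3% and 14.8% in mock and 5.28%, 3.82% and 2.40% in ABA libraries. miRNAs of the jacalin lectin class went from 0.280% ± 0.048 to 0.0274% ± 0.0093 and those of the immune receptor class from 0.172% ± 0.043 to 0.697% ± 0.330 (mean ± SD, n = 3 each). For 10 of the 13 classes the groups did not overlap (exact permutation test, two-sided, p = 0.1, the smallest that 3 against 3 libraries allow, 0.13 adjusted over the classes). Shares sum to a fixed total, so a class can gain because another lost. Silencing, copper and auxin miRNAs overlapped between groups.

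Base composition moved with the response. All 14 miRNAs under 35% GC fell, while of the 23 over 55% GC 10 rose and 3 fell. Across the 125 miRNAs the fold change had a Pearson correlation of 0.64 with the GC percentage, a description over sequences of the same 6 libraries. In all 3 ABA libraries high-GC miRNAs lay above their mean over the 6 libraries, by 0.26, 0.50 and 0.60 log2 units for each 10 points of GC, and in all 3 mock libraries below it, by -0.36, -0.51 and -0.49. The slope separates the groups, so an effect of GC content on the measurement and an effect of ABA cannot be told apart. After the line on GC was subtracted from each library (the GC correction), 28 miRNAs were higher and 26 lower. Of the main calls, 22 of the 33 higher and 20 of the 42 lower remained, and 6 and 4 changed sign.

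At the extremes changes ran 1 way, since all 6 miRNAs at 28.6% GC and all 6 at 33.3% fell, while at 61.9% GC 6 of 8 rose and 0 fell (also 0 lower at an unadjusted p under 0.05 in limma). At the commonest GC values changes of both directions were called, mostly falls at 42.9% and mostly rises at 47.6% and 52.4%. At 42.9% GC, 23 miRNAs were tested, of which 2 rose, 11 fell and 10 did not pass, with log2 fold changes from -1.96 to 0.95. At 47.6% GC, 6 of 18 rose and 1 fell, from -1.07 to 2.53, and at 52.4% GC 8 of 17 rose and 2 fell, from -1.10 to 1.86. The arm ratios of 8 of the 18 changed hairpins came from arms within 5 points of GC of each other, as did 17 of all 43 pairs tested, and across the 43 pairs the change in ratio had a Pearson correlation of 0.42 with the difference in GC. Of 125 miRNAs, those that rose had a median of 52.4% GC and those that fell 39.1%.

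**Figure D4:**
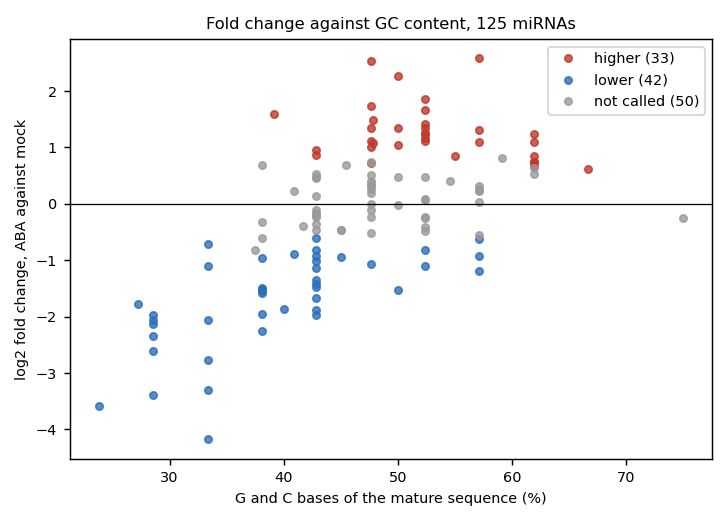
Log2 fold change (ABA minus mock) of the 125 tested miRNAs of WT Col-0 against the percentage of G and C in the mature sequence, red for higher, blue for lower and grey for not called. Points under 35% GC all lie below 0, the 8 at 61.9% GC all lie above 0, and points at 42.9%, 47.6%, 52.4% and 57.1% GC lie on both sides.

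The wild-type response was then set against those of the mutants. In a fit of all 24 libraries with 129 miRNAs, the ABA response differed from that of WT Col-0 for 44 miRNAs in mkkk17 (34.1%, with 20.2% higher in the mutant), 17 in mkkk18 (13.2%, with 10.1% higher) and 2 in abi1td (1.55%, both higher). The lines carry T-DNA insertions in the gene of the phosphatase ABI1, which dampens ABA signalling, and in the kinase genes MAPKKK17 and MAPKKK18. Among the 75 miRNAs called in the wild type, 41, 16 and 2 differed, and in each of them the difference ran against the wild-type change. The 33 miRNAs that rose in the wild type had a median log2 fold change of 1.21 there, and of 0.43 (abi1td), -0.06 (mkkk17) and 0.44 (mkkk18) in the mutants. The 42 that fell had medians of -1.49, -0.58, -0.01 and -0.34. These sets were chosen on the wild-type libraries, which favours larger values there.

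The counts depended on single libraries. Without the second ABA library of abi1td the count for abi1td was 27, without the first mock library of mkkk17 that for mkkk17 was 26, and without the first ABA library of mkkk18 that for mkkk18 was 26. Among the wild-type libraries, leaving out mock replicate 3 took the count for mkkk18 to 0 and leaving out ABA replicate 1 took it to 31. With RPM as deposited 78 miRNAs differed for mkkk17, with 78 higher in the mutant and 0 lower, so all negative differences of the main fit lost their call. In that setting 0 differed for mkkk18 (30 at an unadjusted p under 0.05 in limma) and 0 for abi1td (16 at an unadjusted p under 0.05). miR846-3p differed in each mutant, where its log2 fold change was -1.04 (abi1td), 0.55 (mkkk17) and -0.76 (mkkk18), against -3.35 in the wild type. Its difference in abi1td passed narrowly (adjusted p = 0.0437, limma). The count for abi1td was 0 with either other pseudocount, either other filter, the GC correction, robust moderation and most single wild-type libraries left out. At an unadjusted p under 0.05 in limma it was 21 to 39 there. For miR824-3p the changes were 1.77, 1.64, 1.17 and 1.34, and no mutant differed from the wild type (differences of -0.13 ± 0.32, -0.61 ± 0.32 and -0.43 ± 0.32, the standard error for each).

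**Figure D5:**
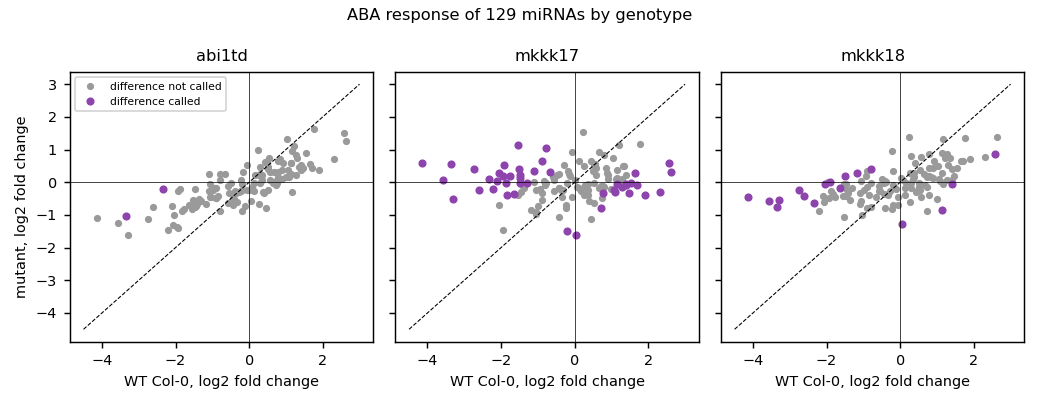
Log2 fold change after ABA of 129 miRNAs in each mutant (y axis) against that in WT Col-0 (x axis), from a fit of all 24 libraries, with miRNAs whose response differed from WT in purple and the line of equal response dashed. Purple points number 44 in mkkk17, 17 in mkkk18 and 2 in abi1td, of which 40, 16 and 2 lie nearer to 0 in the mutant than in WT.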

How the data were processed

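Small RNA libraries of 6 WT Col-0 samples, 3 mock and 3 ABA, were compared, and 18 mutant libraries entered the fits between genotypes. The authors sequenced TruSeq small RNA libraries on a HiSeq, clipped adapters, filtered reads and assigned them to miRBase miRNAs with mirPRo. They deposited RPM per mature sequence, rounded to a single decimal, with replicates kept apart. The total behind the RPM is not given in the sources used here. Over the limited range of totals searched, whole reads were recovered from the rounded values in only 2 of the 6 libraries, and count tests were not run.

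RPM were divided by the median of ratios, and log2(scaled RPM + 0.5) of sequences with a mean of at least 1 RPM was fitted in R 4.3.3 (limma 3.58.1, variances moderated by empirical Bayes with a trend) with Benjamini-Hochberg adjustment (threshold 0.05). Families were summed before the logarithm. Arm ratios were fitted as the log2 value of the 5p minus that of the 3p arm, paired by name. Differences between genotypes came from 1 fit of 24 libraries. Class shares were compared by exact permutation tests, two-sided, with Python 3.11.15 and SciPy 1.17.1. Sequences were matched exactly to TAIR10.1. The fits were tested on simulated data.

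Named miRNAs are the 10 highest and 10 lowest called fold changes without overlap, the most abundant tested member of each listed family, both arms of hairpins with a changed ratio, and families with an earlier link to ABA. Not all of these are printed, and a further 7 (both miR398a arms, miR399d, miR403-5p, miR408-5p, miR775 and miR860) were chosen after their values were seen. Members and lists were chosen with earlier results of these data known. The alternatives were no scaling (RPM as deposited), scaling by trimmed log ratios, a pseudocount of 0.1 or 1, a filter at 5 RPM or none, a block on the replicate number, a GC correction with and without it, robust moderation, all 24 libraries and each library left out. For each mutant 1 library that lay apart was left out after seeing the data.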

Additional observations from a re-analysis of the deposited data

Results flagged for a closer look

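The ABA response of some of the named miRNAs differed between WT Col-0 and a mutant by a test of the difference itself (limma, 24 libraries, adjusted p under 0.05). Values are the log2 ABA response of the mutant minus that of WT Col-0, so a positive value is a smaller fall or a larger rise in the mutant. These tests share the 6 wild-type libraries. In abi1td they were miR158a-5p (2.14) and miR846-3p (2.31), both at an adjusted p of 0.0437 in limma and both lost in most alternatives. In mkkk17, miRNAs that fell in the wild type were higher by comparison, namely miR157a-5p (1.27), miR158a-3p (1.42), miR158a-5p (2.45), miR161.2 (4.73), miR393a-3p (3.13), miR393b-3p (1.99), miR397b (2.44), miR400 (2.35), miR403-5p (1.97), miR447a.2-3p (3.63), miR775 (1.61), miR779.2 (2.80), miR781a (2.14), miR824-5p (1.82), miR825 (1.30), miR827 (0.98), miR846-3p (3.90), miR846-5p (2.66), miR860 (2.35) and miR869.2 (1.84). Among those that rose in the wild type, the star strands of miR156 and miR157 differed in mkkk17, miR156a-3p (-1.46), miR156b-3p (-1.56), miR156c-3p (-1.39), miR156d-3p (-1.35), miR156f-3p (-2.31) and miR157a-3p (-2.31), as did miR162a-3p (-1.29), miR166a-3p (-1.10), miR166a-5p (-1.43), miR168a-3p (-1.80), miR171a-3p (-1.48), miR390a-5p (-1.50), miR399c-5p (-1.80), miR399d (-1.20), miR472-3p (-2.60) and miR2111b-3p (-1.99). In mkkk18 the positive differences were those of miR158a-5p (1.71), miR161.2 (3.68), miR169f-3p (1.46), miR393a-3p (2.49), miR397b (1.93), miR400 (2.18), miR447a.2-3p (2.99), miR775 (1.66), miR779.2 (2.76), miR824-5p (1.18), miR825 (1.48), miR846-3p (2.59) and miR1886.2 (2.00). The negative ones were those of miR156a-3p (-1.45), miR167c-3p (-1.99) and miR2111b-3p (-1.71). With RPM as deposited no negative difference was called in mkkk17, and no difference of either sign in mkkk18.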

How the results depend on the processing

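Of 98 named fold changes and arm ratios, 33 kept their direction and their side of the threshold in every alternative and 26 changed sign in at least 1. The GC correction changed most: families called went to 29, differences from abi1td to 0 (23 at an unadjusted p under 0.05 in limma), and values became 0.32 for miR159a, 0.094 for miR159b-3p, -0.31 for miR160a-5p, -0.98 for miR165a-3p, -0.43 for miR166a-3p, -0.42 for miR168a-5p, -0.49 for miR390a-5p, -0.48 for miR398b-3p, 0.19 for miR403-5p, -0.060 for miR408-3p, 0.19 for miR472-5p, 0.021 for miR823, 0.71 for miR827, 0.32 for miR838, -0.21 for miR842, 0.67 for miR2111a-5p, 0.12 for the miR157 and 0.39 for the miR161 family, and 0.56 and 1.05 for the arm ratios of miR158a and miR403. With RPM as deposited, values were -0.20 for miR161.1, -0.030 for miR393a-5p, -0.25 for miR397a, -0.26 for miR398b-3p, -0.32 for miR842 and -0.17 for the miR156 family. Differences from abi1td, mkkk17 and mkkk18 then numbered 0, 78 and 0 (16 and 30 at an unadjusted p under 0.05 in limma where 0). All 78 were higher in mkkk17. miR156a-5p was 0.00298 with the trimmed mean of log ratios and 0.017 in the fit of 24 libraries. A mean of at least 5 RPM left 11 changed arm ratios, since fewer pairs were tested. Differences from abi1td were 0 with that filter, no filter, pseudocounts of 0.1 and 1 and robust moderation (22 to 39 at an unadjusted p under 0.05 in limma), and those from mkkk18 were 9 with no filter. The cause of these changes was not tested.

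Same-numbered mock and ABA libraries did not deviate together (mean correlation -0.18). With 3 libraries in each group this cannot exclude that same-numbered samples were handled together. With the replicate block 67 miRNAs, 40 families and 14 arm ratios were called, and 2, 40 and 9 differences from abi1td, mkkk17 and mkkk18. With the GC correction and the replicate block together these were 49 miRNAs, 29 families, and 1 and 27 differences from abi1td and mkkk17. The signs that this pair of choices turned were those of the GC correction, with the same values.

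With a library left out, miRNAs called ran from 57 to 81, families from 36 to 47, arm ratios from 16 to 20, and differences from abi1td from 0 to 27, from mkkk17 from 26 to 46 and from mkkk18 from 0 to 31, with 21 to 39 at an unadjusted p under 0.05 in limma where the count was 0. Values ran from -0.21 to 0.10 for miR156a-5p, from -0.075 to 0.29 for miR842, from -0.21 to 0.021 for the miR161 family and from -0.040 to 0.15 for the arm ratio of miR408. The change in share ran from -0.316 to 0.680 points for auxin and from -0.0984 to 0.631 points for copper miRNAs. Over 21-nt sequences alone it was -0.570 points for auxin, -0.169 for copper and -0.0101 for immune receptor miRNAs, and without miR166a-3p it was 0.0935 for PPR genes. Depth limits miRNAs near 0.5 RPM, where 3 reads or fewer are counted.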

Other observations

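Sequences below the level tested were lost on 1 side only. Of the 350 listed, 14 were above 0 in all 3 mock libraries and listed at 0 in all 3 ABA libraries, and 0 showed the reverse. They included miR863-3p with 0.2, 0.6 and 2.1 RPM in mock, miR5998a with 0.3, 0.8 and 2.0, miR829-3p.2 with 0.7, 1.3 and 0.5, and miR828, which targets MYB factors of pigment synthesis, with 0.2, 0.1 and 0.1. Between 200 and 211 sequences were above 0 in a mock library and between 157 and 181 in an ABA library. In ABA replicates 2 and 3, 3 reads are worth 0.457 and 0.541 RPM, which covers counting error only, so most of these 14 could not have been told from absence there.

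Of 77 tested miRNAs that begin with U, 14 rose (18.2%) and 30 fell (39%), and of 19 that begin with G, 9 rose (47.4%) and 4 fell (21.1%), against 26.4% and 33.6% over all miRNAs tested. All 3 tested sequences of 23 nt rose, each from a 3p arm (miR156b-3p, miR156d-3p and miR167c-3p).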
